A study of Homo sapiens with 7 samples.

Results

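The deposited table listed 343 peaks of N6-methyladenosine (m6A) in 248 noncoding transcripts, which were 2.69% of its 12769 peaks. The members were taken as all transcripts not labelled coding that had at least 1 peak, leaving out 2 ribosomal RNA entries. They came from 5953 noncoding entries among 25918 transcripts. Beside them stand 2256 noncoding transcripts that had no peak and an expression quantile above the lowest value in the table, 0.314. The study asked where m6A lies in the RNA of untreated HepG2 cells, as the labels call them, an established line from a human liver tumour. It used 4 libraries precipitated with an antibody against m6A and 3 input libraries, all 7 from untreated cells. The authors pooled them into 1 table, so there is no value per library, depth is unknown, and no difference below has a replicate error or a test over samples. Shares carry 95% Wilson intervals, which cover counting error only.

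The m6A mark is placed on adenosines of nascent RNA by a methyltransferase built around METTL3 and METTL14, in a sequence context written RRACH, where R stands for a purine and H for any base but G. It is read by YTH domain proteins and is best known from messenger RNA, where it lies mainly in long exons and near stop codons. Long noncoding RNAs have no stop codon. Several of them, among them the nuclear RNA MALAT1, are established m6A substrates.

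The windows below show what a noncoding peak looked like in sequence. Each is the 101 bases centred on the listed peak position, 5′ to 3′, with every RRACH in capitals. They were read from GENCODE release 29 transcripts, in spliced order. A match needed the same chromosome, strand and total span, and the same number and length of each exon with a peak. Genomic location and the other exons were not compared, so a match can be to another gene. HSPC157, which RefSeq names LINC00339, matched GSTM5, and its window is among those counted below. The type of the matched gene was not used either. AK027093, KIAA0426, AK090688 and AK311398 matched transcripts of the coding genes MARVELD1, ZSCAN12, PDE10A and ZNF131, and their windows are counted too. AK090688 and AK311398 are among the exact matches. Of the windows shown here, AX747592, HOXA11AS and SNHG7 matched to the base in these features, and the others within 10 nt. Windows of the latter may be displaced by that much, and by more where other exons differ. AK127179 is shown as the highest-scoring peak with a sequence, HOXA11AS and SNHG7 as weaker peaks with the motif, and BC031342 as a highly expressed transcript without it. AX747592 and BC034569 are shown because their peaks lay at the place of a peak on the opposite strand. Apart from AK127179 and SNHG7, these were chosen after their values were seen.
AK127179 (GENCODE DICER1-AS1, position 2200): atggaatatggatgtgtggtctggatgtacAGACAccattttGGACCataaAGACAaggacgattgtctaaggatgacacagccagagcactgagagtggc
AX747592 (CTBP1-AS, position 594): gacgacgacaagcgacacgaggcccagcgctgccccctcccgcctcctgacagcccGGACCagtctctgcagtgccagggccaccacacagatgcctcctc
BC034569 (ZNF337-AS1, position 2403): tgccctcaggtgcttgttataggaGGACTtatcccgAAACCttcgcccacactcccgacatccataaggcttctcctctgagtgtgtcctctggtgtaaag
HOXA11AS (HOXA11-AS, position 261): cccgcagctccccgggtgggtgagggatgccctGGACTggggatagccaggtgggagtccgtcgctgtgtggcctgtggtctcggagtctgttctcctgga
SNHG7 (SNHG7, position 2105): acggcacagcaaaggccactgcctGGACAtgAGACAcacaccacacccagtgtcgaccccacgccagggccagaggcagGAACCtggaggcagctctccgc
BC031342 (HOTAIRM1, position 111): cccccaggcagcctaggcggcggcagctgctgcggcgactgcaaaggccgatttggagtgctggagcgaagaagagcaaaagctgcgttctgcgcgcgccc

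The distance from the peak position to the central A of the nearest RRACH was 3 nt in AK127179, 8 nt in AX747592, 12 nt in BC034569, 15 nt in HOXA11AS and 17 nt in SNHG7. In the table's own coordinates, whose build is not given in the sources used here, these transcripts were AK127179 at chr14:94713573-94716023 (plus strand), AX747592 at chr4:1193908-1202379 (plus) and BC034569 at chr20:25552681-25606706 (plus). HOXA11AS lay at chr7:27191552-27195437 (plus), SNHG7 at chr9:138735639-138742457 (minus) and BC031342 at chr7:27102268-27106109 (plus).

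The cell type markers went against the label. Of 9 hepatocyte markers, 5 were at the lowest quantile (AFP, ALB, APOB, SERPINA1 and TTR), and the highest was FGB, a fibrinogen chain, at 0.619. Of 8 markers of other epithelia, 3 were at the lowest quantile, and KRT7, a keratin of simple epithelia, was at 0.998. The values below are therefore those of cells labelled HepG2, and the part of cell identity in them was not tested.

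The share of transcripts with a peak was smaller among noncoding than among coding transcripts. A peak was listed for 248 of 2504 noncoding transcripts above the lowest quantile, or 9.90% (8.80 to 11.1% as Wilson interval), and for 6990 of 15273 coding transcripts, or 45.8%. Members had a median expression quantile of 0.659 (quartiles 0.568 and 0.754), against 0.466 (0.397 and 0.562) for noncoding transcripts without a peak. Coding transcripts with a peak had a median of 0.803. In bulk RNA, few cells with much of a transcript and many cells with little of it cannot be told apart.

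The share with a peak was higher at each step of expression up to a quantile of 0.9 in both kinds of transcript. It was lower in noncoding ones from a quantile of 0.4 upward, with intervals that did not overlap in any of these bins. Between 0.3 and 0.4 it was 2 of 582 noncoding transcripts (0.344%, interval 0.0943 to 1.24%) and 1 of 1645 coding ones (0.0608%, 0.0107 to 0.344%). Between 0.4 and 0.5 it was 14 of 791 (1.77%, 1.06 to 2.95%), against 3.89% of coding transcripts (3.09 to 4.88%). In that bin the intervals overlapped once spans under 1000 nt were left out, at 1.15 to 3.21% and 3.16 to 4.99%. From 0.5 to 0.6 the share was 12.5% (9.96 to 15.5%) against 28.4% of coding transcripts. From 0.7 to 0.8 it was 35.6% (28.3 to 43.5%) against 65.1%. From 0.8 to 0.9 it was 36.6% (27 to 47.4%) against 71.5%. Among the 59 noncoding transcripts at 0.9 and over it was lower again, at 23.7% (14.7 to 36.0%), against 69.3% of coding ones, and the noncoding intervals of these last 2 bins overlap. Many of these abundant noncoding entries were short: 21 of the 59 spanned under 1000 nt, and 1 of those 21 had a peak. With spans under 1000 nt left out of both kinds, the noncoding shares were 47.5% (35.5 to 59.8%) from 0.8 to 0.9 and 34.2% (21.2 to 50.1%) at 0.9 and over, where the coding share was 70.1%.

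**Figure D1:**
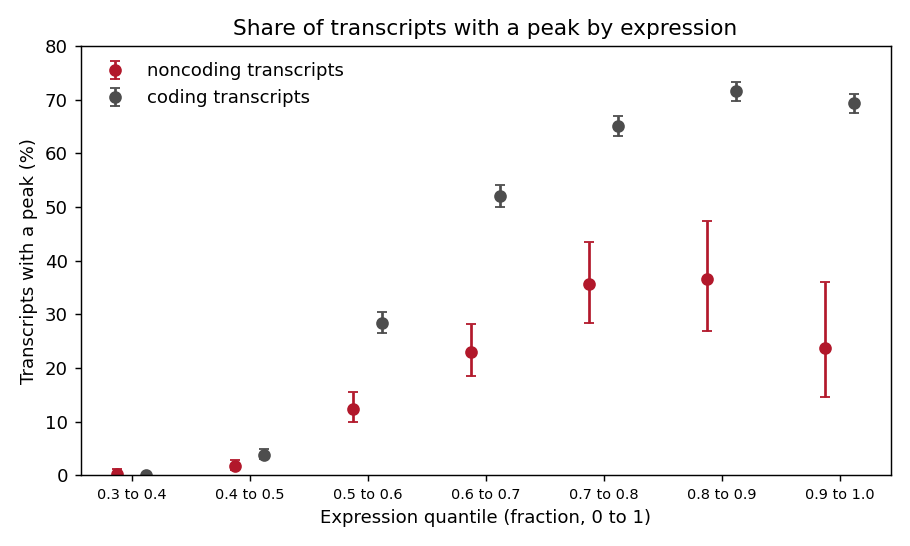
Percent of transcripts with a peak (vertical axis) in 7 bins of the expression quantile (horizontal axis), for noncoding and coding transcripts above the lowest quantile; points are shares and bars 95% Wilson intervals. The noncoding share rises from 0.344% to 36.6% at 0.8 to 0.9 and lies below the coding share in each bin from 0.4 upward.

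The scores of noncoding peaks ran from 2.00 to 6.41. The score is the authors' own, on a scale that is not stated, and no listed peak of any transcript was under 2.00. The median was 2.94 (quartiles 2.40 and 3.68) over the 343 noncoding peaks, beside 3.15 (2.53 and 3.98) over 12424 coding peaks. By expression, the noncoding median was the lower in each bin from 0.5 to 0.9. It was the higher from 0.4 to 0.5 (3.88 over 15 peaks, against 3.74) and at 0.9 and over (3.56 over 19 peaks, against 2.99). A score of 4 or more was reached by 16.3% of noncoding peaks (12.8 to 20.6%) and by 24.4% of coding peaks (23.7 to 25.2%). With only the highest peak of each transcript, the medians were 3.17 and 3.56. Across peaks, score and expression had a Spearman rho of -0.19 in noncoding (343 peaks) and -0.13 in coding transcripts (12424 peaks). Peaks of 1 transcript share its quantile and the same pooled reads.

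The highest score belonged to FAM13AOS, an RNA transcribed antisense to FAM13A, at 6.41. Its peak lay at position 1883 in exon 2 (2269 nt), its quantile was 0.50, and the entry is at chr4:89861889-89870277 on the plus strand. AK127179 followed with 6.28, at a quantile of 0.453, at position 2200 of the 2323 bases of its GENCODE match DICER1-AS1, named for the neighbouring gene of the microRNA-processing enzyme. Both quantiles lay below the members' lower quartile of 0.568. MALAT1, a nuclear RNA of splicing speckles and among the most abundant RNAs here, came next with 6.05 at a quantile of 0.997.

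The remaining members among the 10 with the highest scores were mostly cDNA clones without a gene name. AL110181 scored 5.66 at position 331 and starts 152 nt from WASL, an actin regulator transcribed the other way. BC065505 scored 5.52 at position 627 and starts 1224 nt past the end of MDM2, the p53 ubiquitin ligase, on the same strand. AK023856 scored 5.24, DQ576878 5.16, AK057719 5.01, AL833509 4.99 and LQFBS-1 4.97. AK057719 has its peak 75 nt from its start and overlaps ENG, the endoglin coreceptor, on the opposite strand. LQFBS-1 overlaps BAT2L on the opposite strand, a coding transcript with 10 peaks. At the other end, the 3 lowest scores were 2.00 in AK096014, 2.00 in CR594735 and 2.01 in BC016779. AK096014 also held a peak scored 4.81, so weak and strong peaks occurred in 1 transcript.

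**Figure D2:**
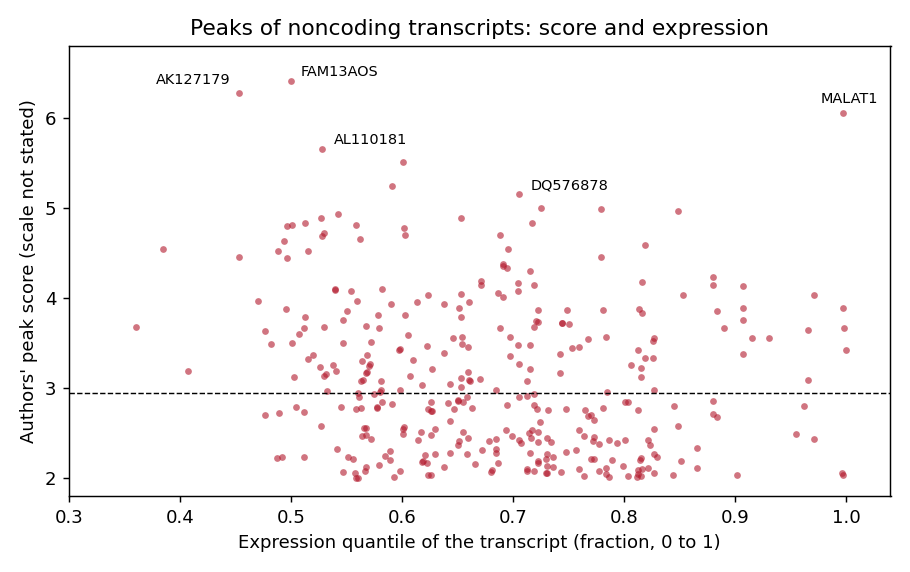
Authors' peak score (vertical axis, scale not stated) against the expression quantile of the transcript (horizontal axis) for the 343 peaks of noncoding transcripts, 1 point per peak; the dashed line is the median score of 2.94. The scores of 6.28 and 6.41 belong to transcripts with quantiles of 0.453 and 0.50, and MALAT1 holds the high score at 0.997.

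Most members had 1 peak. There were 175 with 1 peak (70.6%, interval 64.6 to 75.9%), 56 with 2, 12 with 3 and 5 with 4, a mean of 1.38 per member against 1.78 per coding transcript with a peak. A single peak was found in 55.4% of those coding transcripts (54.2 to 56.5%). Neighbouring peaks of a member lay a median of 495 nt apart (quartiles 333 and 804, 95 gaps), and the smallest gap was 95 nt. In 57 of the 73 members with several peaks, all of them lay in 1 exon (78.1%, interval 67.3 to 86.0%).

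AK056929, the member with 4 peaks and the highest top score, had them at 192, 788, 1651 and 3594 nt with scores of 3.79, 4.88, 3.01 and 3.12, spread over 3 exons. DKFZP586I1420, a pseudogene by its RefSeq type and made of 1 exon of 2745 nt, had 2.94, 3.68, 2.08 and 4.15 at 1500, 1725, 2293 and 2654 nt. BC067112 had its 4 peaks within exon 2 (1328 nt), with scores of 2.40, 2.19, 2.17 and 3.87. The strongest peak was the last of the 4 in these last 2 transcripts. KIAA1702 went the other way, with 3.69, 2.56, 3.17 and 2.13 along an exon of 4383 nt, and it overlaps ZNF451 on the same strand. In dJ1198O21.1 the scores were 3.23, 3.13, 2.03 and 2.23 from 1732 to 4430 nt.

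**Figure D3:**
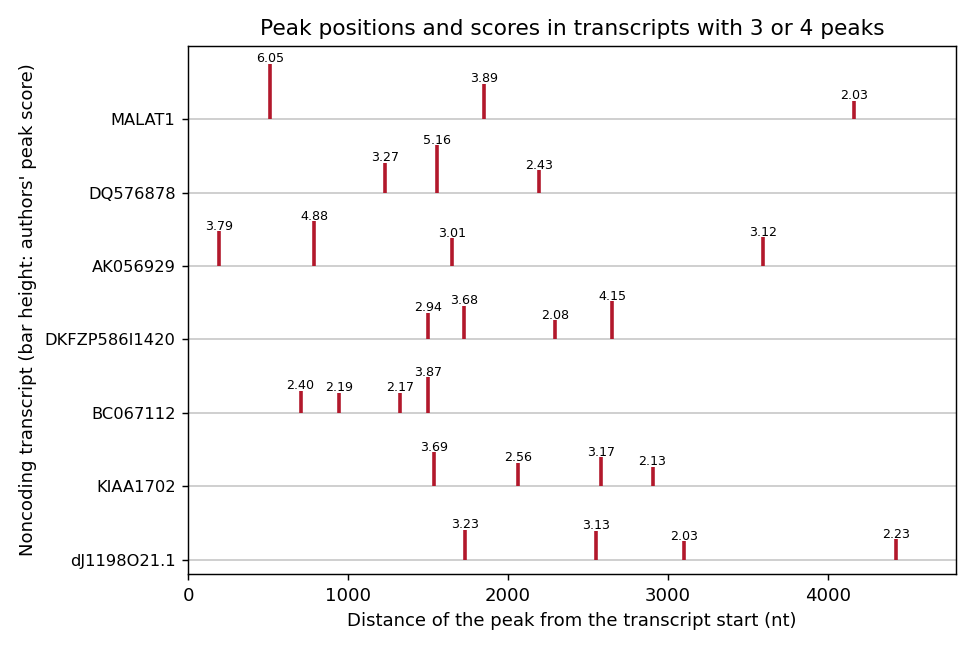
Distance of each peak from the transcript start in nt (horizontal axis) for the 5 noncoding transcripts with 4 peaks, MALAT1 and DQ576878; the height of each bar, and the number over it, is the authors' peak score. The strongest peak is the first in MALAT1 (6.05), KIAA1702 and dJ1198O21.1, and the last in DKFZP586I1420 (4.15) and BC067112 (3.87).

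Nuclear RNAs gave some of the most abundant members. MALAT1 (chr11:65022410-65030999, plus strand) had 3 peaks, all in exon 2 of 7984 nt. They lay at 513, 1852 and 4163 nt, with scores of 6.05, 3.89 and 2.03, so the score was lower at each successive peak along the transcript. AF113016, an entry on the opposite strand within the MALAT1 span, had a quantile of 0.998 and a peak scored 3.67 at 65024494. The second MALAT1 peak lies between 65024355 and 65024866, depending on the length of exon 1, which the table does not give and which must be under 513 nt, if exon 2 is taken as the last. That range holds the peak of AF113016, and which strand gave it cannot be told apart.

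NEAT1, the scaffold RNA of paraspeckles, was present as NCRNA00084, for which RefSeq gives the symbol NEAT1. That entry (chr11:64949093-64963719, plus strand) had a quantile of 0.965 and a peak scored 3.64 at position 1299, in exon 1 of 12138 nt. CR607557, the most expressed member with a quantile of 0.999, ends 284 bases before it on the same strand and had a peak scored 3.42 at position 1432. The other members among the 5 most expressed were BC106081 (quantile 0.996, score 2.05) and AK125310 (0.971, scores 4.04 and 2.43). So the 5 most expressed entries with a peak covered the range from 2.05 to 6.05 in top score. Among them, AF113016 lies within MALAT1 on the opposite strand, and which strand gave the reads behind its quantile cannot be told apart.

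Of 5 nuclear and architectural RNAs that the table listed under a noncoding entry by symbol, 2 were members. The count leaves out NCRNA00084 and AK097911, a member that matched FIRRE, a chromatin-bound nuclear RNA, since their symbols differ. Besides MALAT1 this was PVT1, a long RNA beside the MYC gene, with a quantile of 0.880 and peaks of 2.71 at position 93 and 4.23 at position 575. MIAT had no peak at a quantile of 0.434. Among hosts of small nucleolar RNAs, whose introns carry those RNAs, 2 of 8 above the lowest quantile were members: SNHG5 (0.772, score 2.41) and SNHG7 (0.799, score 2.14). These scores are below the median of all noncoding peaks. Listed hosts with higher quantiles and no peak were SNHG6 at 0.937, GAS5 at 0.904, SNHG8 at 0.877, SNHG1 at 0.875 and SNHG9 at 0.873. C7orf40, which RefSeq names SNHG15 and the count by symbol leaves out, was at 0.844 and had a peak scored 2.04.

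MicroRNA hosts gave 1 member of 4 by symbol, C9orf45 (RefSeq MIR600HG), with a score of 3.94 at position 3788 of 4026 nt. DLEU2 had no peak at a quantile of 0.542. AK123483, which by span and peak exon matched MIR210HG, the host of a hypoxia-induced microRNA, had a peak of 3.96 at position 235 and a quantile of 0.614. It was not counted above, since the table does not use that symbol, and neither were BX648541 (MIR4458HG, score 3.27) and BC073928 (MIR762HG, 2.06). Imprinted noncoding RNAs gave 0 members of 3 above the lowest quantile, and GNASAS was the most expressed of these at 0.517. H19, an abundant imprinted RNA, is labelled coding in the table and so is no member; its quantile was above 0.999 and it had 1 peak. Of the RNAs listed for cancer and liver, 1 of 5 above the lowest quantile was a member by symbol, and this was MALAT1. That count leaves out listed RNAs present under other symbols. BC031342, which matched HOTAIRM1, had a quantile of 0.966 and a score of 3.09. PLAC2, which RefSeq names TINCR, had a quantile of 0.826 and a score of 3.52. HOTAIR had no peak at 0.663, CDKN2BAS none at 0.646, and HULC was at the lowest quantile. The background of 9.90% covers all quantiles and is no measure for listed genes of high expression: from 0.6 to 0.9 the share over all noncoding transcripts was 23.0 to 36.6%. The lists hold too few genes for a comparison at like expression.

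Most members were listed in the table under a cDNA accession, although some of these matched a named GENCODE gene. These made up 182 of the 248 (73.4%), and 9.59% of their class had a peak (8.35 to 11%). Uncharacterised names such as LOC and FLJ symbols gave 27 of 161 (16.8%, interval 11.8 to 23.3%) and pseudogenes by RefSeq type 11 of 134 (8.21%, 4.65 to 14.1%). Noncoding entries under the symbol, or a RefSeq synonym, of a coding gene gave 10 of 75 (13.3%, 7.41 to 22.8%). Place and strand were not compared for this class. EPR-1 is in it through RefSeq symbol ELF3, although it overlaps BIRC5 on the opposite strand. The intervals of the last 2 classes overlapped that of the cDNA accessions, while that of the uncharacterised names lay just above it. These shares are without regard to expression. Above a quantile of 0.5 they were 31.0% for uncharacterised names and 21.8% for cDNA accessions, with no interval given, so a difference at like expression was not tested. Examples were the pseudogene PMS2CL (score 3.97), the SDHA-like LOC220729 (3.63) and a noncoding variant of PXN, the gene of the adhesion protein paxillin (3.87). Pseudogene reads can also come from the parent gene, and how such reads were assigned is not given in the sources used here.

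No small RNA had a peak. The class of small nucleolar, spliceosomal, microRNA precursor and related small RNAs gave 0 of 128, which allows a share of up to 2.34% (3 counts of the total) or, as the upper Wilson limit, 2.91%. Its entries had a median quantile of 0.619, and 124 of the 128 were above 0.5, where 20.5% of all noncoding transcripts had a peak. Its median span was 132 nt. RNA was selected for poly(A), which these RNAs lack, and broken to fragments of about 100 nt, and the smallest peak position in any member was 51 nt. Whether the reads behind these quantiles came from the small RNAs themselves cannot be told from this table. The quantiles are therefore no measure of their expression, and the part of length in the count was not tested.

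Noncoding peaks lay in long exons. The median exon with a peak measured 1662 nt (quartiles 929 and 2498), against 1315 nt for coding peaks. Exons of 400 nt and over held 93.3% of noncoding peaks (90.1 to 95.5%) and 84.4% of coding peaks (83.8 to 85.0%). Exons of 1000 nt and over held 72.3% (67.3 to 76.8%) and 59.5% (58.6 to 60.3%). Exon 1 held 46.9% of noncoding peaks (41.7 to 52.2%) and 19% of coding peaks. Gene structure differed beside it: 69 of the 248 members (27.8%) had 1 exon as long as the whole span, against 3.22% of coding transcripts with a peak. The table gives exons only where there is a peak, so the exon lengths of noncoding transcripts without a peak are not used here.

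Along the transcript, noncoding peaks were spread from end to end. In the 69 members of 1 exon, which had a median length of 2234 nt, the 96 peaks numbered 19, 17, 23, 18 and 19 in 5 successive stretches of equal length. Their median relative position was 0.493 (0 is the 5′ end). The 389 peaks of coding transcripts of 1 exon numbered 87, 107, 92, 64 and 39, and 10.0% of them were in the last stretch (7.42 to 13.4%) against 19.8% of the noncoding peaks (13.1 to 28.9%). In 33 members matched exactly to GENCODE transcripts of several exons, 43 peaks had a median relative position of 0.487 and numbered 14, 7, 5, 9 and 8 in the 5 stretches. The last exon held 25 of those 43 (58.1%, interval 43.3 to 71.6%), beside 56.0% of 1256 matched coding peaks. A peak lay under 200 nt from the start in 34 of the 343 noncoding peaks (9.91%, interval 7.18 to 13.5%) and in 12.5% of coding peaks. The order of the shares was not the same in all bins of expression. From 0.4 to 0.5, 4 of 15 noncoding peaks lay there (26.7%, interval 10.9 to 52.0%) against 1.12% of coding peaks (0.199 to 6.09%), and from 0.5 to 0.6 it was 10.3% (5.54 to 18.5%) against 3.55% (2.50 to 5.03%). In the next bins the noncoding and coding shares were close: 7.95% and 6.70% from 0.6 to 0.7, 7.06% and 8.38% from 0.7 to 0.8, and 12.8% and 12.7% from 0.8 to 0.9. At 0.9 and over it was 2 of 19 noncoding peaks (10.5%, 2.94 to 31.4%) against 23.1% of coding peaks (21.6 to 24.7%), and these intervals overlap.

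The methylation motif was common at noncoding peaks. RRACH lay within 50 nt of 36 of 43 exactly matched peaks (83.7%, interval 70.0 to 91.9%), of 49 of 70 windows 300 nt away on the same transcripts (70.0%, interval 58.5 to 79.5%), and in 75.1% of all 101-base windows of these transcripts. These intervals overlap. Within 25 nt the shares were 67.4% (52.5 to 79.5%) at peaks and 40.3% (29.7 to 51.8%) away from them. With transcripts matched within 10 nt, 101 peaks in 77 members could be read, and the shares within 50 nt were 84.2% (75.8 to 90.0%) and 75.4% (68.5 to 81.2%). Coding peaks had 89.6% at the peak (87.8 to 91.2%) and 75.4% away from it. On the transcribed strand, the window of AK127919, a transcript with a score of 4.80, held no RRACH at all, and neither did that of BC031342, which matched HOTAIRM1, an RNA of the HOXA cluster (quantile 0.966, score 3.09).

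Among the 12 forms of RRACH, GGACA and GGACT differed most between peaks and flanks in the set matched within 10 nt. GGACT lay within 50 nt of 22.8% of the 101 peaks (15.7 to 31.9%) and of 10.3% of 175 windows 300 nt away (6.61 to 15.7%). Over all windows of these transcripts its share was 11.1%. GGACA lay at 27.7% of the peaks and 9.14% of the flanks. In the 43 exactly matched peaks both lay at 20.9%, against 11.4% (GGACT) and 12.9% (GGACA) of flanks, and AGACC differed more, with 0 of 43 peaks and 14.3% of flanks. The AAACC motif went the other way, with 6.93% and 9.14%. Coding peaks had GGACT at 27.6% (26.2 to 29.1%), above the noncoding share but within its interval. Among the 82 windows with RRACH outside chromosome 8, the nearest motif was a median of 11.5 nt from the peak position (quartiles 4.25 and 19.5). No match in a window says only that these letters are not in it.

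By place, noncoding transcripts that overlapped a coding transcript on the opposite strand only, or started beside one, had a larger share with a peak than all noncoding transcripts together, without regard to expression. An overlap on the opposite strand and none on the same strand, called antisense here, was found for 640 transcripts. Of these, 85 had a peak (13.3%, interval 10.9 to 16.1%). Transcripts overlapping coding transcripts on both strands were counted under the same strand. A further 317 started within 5 kb of the start of a coding transcript on the opposite strand, called divergent here, and 45 of them had a peak (14.2%, 10.8 to 18.5%). Of 264 that began within 5 kb after the end of a coding transcript on the same strand, 25 had one (9.47%, 6.50 to 13.6%). Transcripts that overlapped a coding transcript on the same strand had few, with 9 of 280 (3.21%, 1.70 to 5.99%), although their median quantile of 0.525 was the highest of the groups. For the 1003 others the share was 8.37% (6.82 to 10.3%). Their median quantile was 0.445, against 0.50 for the antisense and 0.489 for the divergent group. At like expression the antisense group was not steadily above the others: the shares were 11.2% and 15.3% from 0.5 to 0.6, 27.4% and 24.1% from 0.6 to 0.7, 44.9% and 33.3% from 0.7 to 0.8, 39.5% and 45.5% from 0.8 to 0.9, and 22.2% and 33.3% above, with overlapping intervals in each bin. The divergent group had 21.8%, 29.7%, 60%, 33.3% and 16.7% in these bins, also with overlapping intervals. With 1 kb in place of 5 kb, the intervals did not overlap from 0.7 to 0.8. There 8 of 10 divergent transcripts (80%, 49.0 to 94.3%) and 16 of 55 others (29.1%, 18.8 to 42.1%) had a peak. In the remaining bins from 0.5 upward they overlapped under that rule too.

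**Figure D4:**
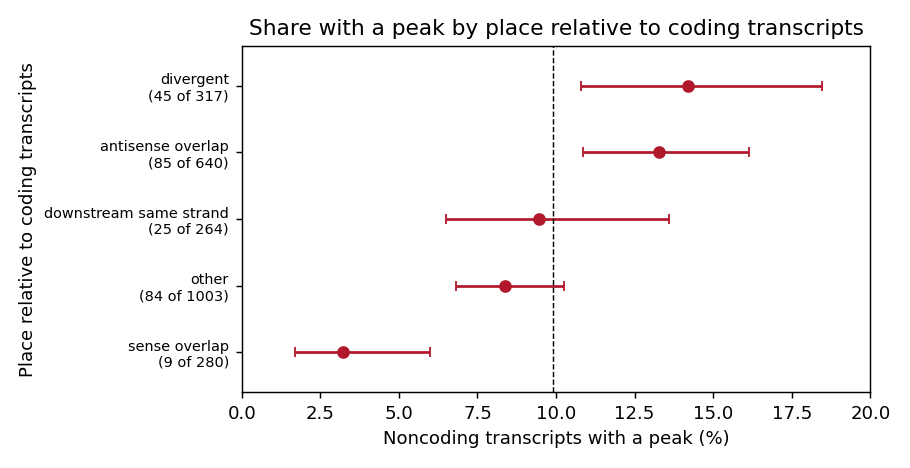
Percent of noncoding transcripts above the lowest quantile that had a peak (horizontal axis), by their place relative to coding transcripts of the table (vertical axis, with counts); bars are 95% Wilson intervals and the dashed line is the share of 9.90% over all places. Same-strand overlap stands lowest at 3.21%, and the divergent and antisense groups lie above the line with their whole intervals.

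Divergent members lay a median of 195 nt from their coding neighbour (7 to 3190 nt over 45 members). By this rule 3 of the 272 divergent transcripts without a peak, and 0 of the members, faced the coding transcript instead. Among them were HOXA11AS, 191 nt from the homeobox gene HOXA11 (score 2.19), NBR2, 131 nt from the breast cancer gene BRCA1 (2.19), and BC042008, 141 nt from ZEB1, a repressor of epithelial genes. In 34 of the 45 the coding neighbour had the higher quantile (75.6%, interval 61.3 to 85.8%), as it did for 231 of the 272 divergent transcripts without a peak (84.9%, 80.2 to 88.7%).

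The 25 members downstream of a coding transcript differed from the rest in structure. Of these, 23 consisted of 1 exon (92.0%, interval 75 to 97.8%), against 17 of 84 members with no coding neighbour by these rules (20.2%, 13 to 30%). In all 25 the coding transcript had the higher quantile, as it did for 206 of the 239 downstream transcripts without a peak (86.2%, 81.2 to 90.0%). The gap had a median of 1541 nt, from 21 nt between APOBEC3C and AK094570 to 4843 nt. BC065505, 1224 nt past MDM2, had a quantile of 0.60 against 0.784. AK095367, 930 nt past the translation release factor gene GSPT1, had 0.542 against 0.962 and a peak score of 4.93. Whether such entries are transcripts of their own or ends of the coding transcript cannot be told apart from this table. Their 35 peaks had a median score of 3.46, and the 118 peaks of members without a coding neighbour 2.97.

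Of the 85 members in the antisense group, 63 overlapped a coding transcript that had a peak itself (74.1%, interval 63.9 to 82.2%), as did 236 of 555 transcripts of that group without a peak (42.5%, 38.5 to 46.7%). Expression moved with this: the coding partner's median quantile was 0.770 for members and 0.645 for the others. Within own quantiles of 0.5 to 0.7, a peak was listed for 18% of transcripts whose partner had a peak (12.4 to 25.4%) and for 16.5% of those whose partner had none (10.1 to 25.8%). At 0.7 and over the shares were 44.6% (33.8 to 55.9%) and 25.8% (13.7 to 43.2%), and these intervals overlap. Under 0.5 they were 6 of 92 (6.52%, 3.02 to 13.5%) and 0 of 225 (upper limit 1.68%), and these intervals do not overlap.

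**Figure D5:**
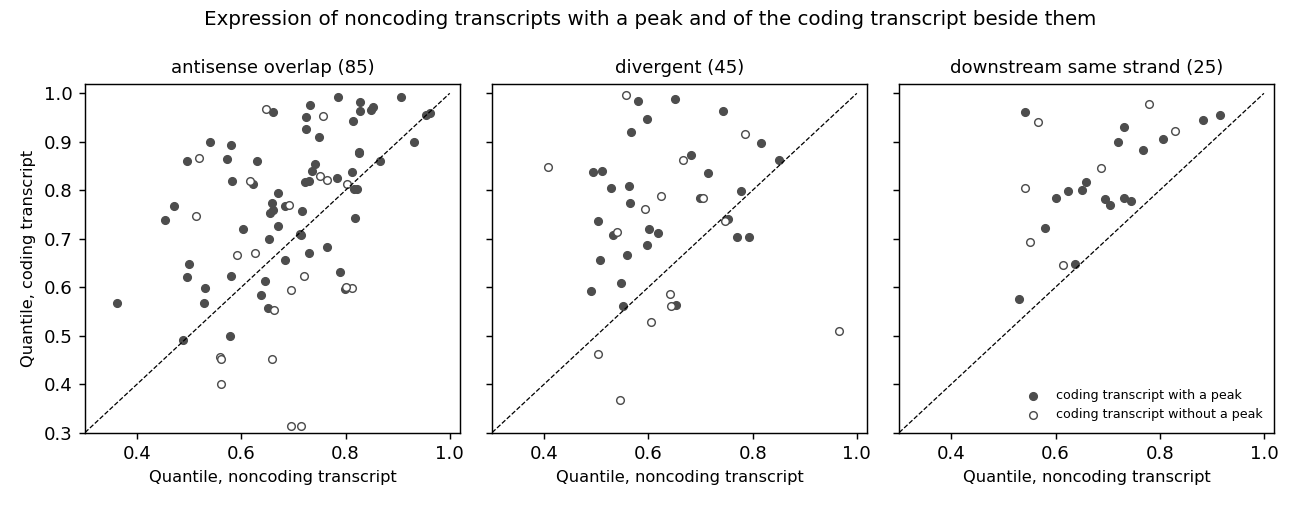
Expression quantile of members (horizontal axis) and of the most expressed coding transcript overlapping or beside them (vertical axis), in 3 panels by place; filled points have a coding transcript with a peak, open points one without, and the dashed line marks equal quantiles. All 25 downstream members lie above the line, and 34 of the 45 divergent members do.

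Peaks on opposite strands often fell on the same bases. A genomic position could be worked out for 239 member peaks, those in exon 1 or in a matched transcript. Of these, 59 lay inside a coding transcript of the opposite strand, and for 20 that coding transcript had a peak whose position was known too. In 13 of the 20 the coding peak lay within 50 nt (65.0%, interval 43.3 to 81.9%), the farthest of these at 35 nt, and 5 were on the very same base. For the other 7 the nearest coding peak of known position was 1079 nt away or more, so no nearest distance lay between 35 and 1079 nt. Coding peaks without a known position were left out, so nearer ones may have been missed. KIAA1303, the coding transcript opposite AK127919, listed 6 peaks, and the nearest of known position was 421290 nt away.

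The peaks on the same base were those of AK094825 and ZNF155, AK095133 and SVEP1, RFPL1S and RFPL1, and both peaks of BC034569 and ZNF337. BC034569 had scores of 2.54 and 4.83 where ZNF337, a zinc finger gene, had 2.43 and 4.74. A distance of 1 nt separated AK126532 from FEM1A (2.11 and 2.24), BC066991 from RNF103 (4.45 and 3.99) and CR600327 from FAM127A (2.80 and 2.91). BC024736, matched to MZF1-AS1, was 3 nt from the peak of MZF1 (3.88 and 3.64), the noncoding LRP11 entry 6 nt from that of LRP11 (3.33 and 3.78), and AX747592 18 nt from that of CTBP1, a transcriptional corepressor (4.03 and 3.87). The second peak of AK126532 was 35 nt from another of FEM1A, and BC037783 was 19 nt from RSBN1L. The noncoding score was the higher in 8 of the 13, and the noncoding quantile in 4. The quantiles were close in several, such as 0.962 for CR600327 and 0.959 for FAM127A, or 0.866 for AK126532 and 0.861 for FEM1A. The library protocol in the labels used random primers and names no step that marks the strand, so which strand carried the mark at these 13 places cannot be told apart.

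The strand of the motif could be compared instead. In the 50 readable peaks of members outside the antisense group, RRACH lay within 25 nt on the listed strand in 82.0% (69.2 to 90.2%) and on the opposite strand in 36.0% (24.1 to 49.9%). These can include members that overlap coding transcripts on both strands. In the 51 peaks of members in the antisense group, the shares were 60.8% (47.1 to 73.0%) and 43.1% (30.5 to 56.7%). GGACH within 25 nt was found in 42.0% on the listed and 16.0% on the opposite strand of the first group, and in 33.3% and 23.5% of the second. These values are from transcripts matched within 10 nt. In the exactly matched peaks the order did not hold for GGACH. It had 35.3% on either strand in 17 peaks outside the antisense group. In 26 peaks of that group it had 34.6% on the listed and 19.2% on the opposite strand. Among exactly matched peaks RRACH had 76.5% and 52.9% outside the group and 61.5% and 42.3% in it. The intervals of the 2 strands overlapped in both groups. This split was chosen after seeing the data, and the difference between the groups was not tested.

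Some peaks were listed under more than 1 entry. BC036664 and BC080650 on chromosome 16 share their start, and each lists a peak at position 710 in an exon of 591 nt with a score of 2.90, which is 1 peak counted under both. There were 6 pairs of members with overlapping spans, 3 of them on the same strand. The numbers of peaks and members here are therefore slightly above the number of distinct loci.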

How the data were processed

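RNA of cells labelled HepG2 was selected for poly(A), fragmented, immunoprecipitated with an anti-m6A antibody (4 libraries) or kept as input (3), and sequenced, per the labels' protocols. The deposited table pools all 7 libraries. Per the file headers, the expression value is a quantile, a fraction from 0 to 1, and each peak has the authors' score, its position along the transcript, and the number and length of its exon. No source used here names the aligner, peak caller, thresholds or build, and without depth the precision of single peaks is unknown.

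Members and lists were chosen with earlier results of these data known. Shares, medians and Wilson intervals were computed with Python 3.11.15, pandas and scipy; peaks are not replicates and no test was made. Genes were named by rank (the 10 highest scores, 5 with most peaks, 5 most expressed, 3 lowest scores) and from lists of nuclear, imprinted, snoRNA host, microRNA host and cancer RNAs; X inactivation and Y-linked genes are not named, and further names were picked with their values known. RNA classes came from symbols and RefSeq gene types (45 of 248 members had a RefSeq entry). GENCODE release 29 gave sequences only, for transcripts of several exons with the same span, exon numbers and exon lengths. Matching, motif search and positions were tested on simulated data. Entries under a cDNA accession formed a class of their own, added after seeing the data. Some results are not reported here.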

Additional observations from a re-analysis of the deposited data

How the results depend on the processing

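Of 30 alternatives to the 6 summary values, 22 stayed within the value's own interval or quartiles. For the medians of score, expression quantile and relative position the range was the quartiles of the data. A median of nearly the same peaks or transcripts can hardly leave that range, so staying within it is no measure of stability. The median relative position, for one, was 0.410 with spans matched within 10 nt, against 0.487. All alternatives outside the range were to shares. The share with a peak was 20.5% above a quantile of 0.5, 5.51% when only peaks of score 3 or more were counted, and 8.74% without the antisense group, the last chosen after seeing the data. The share of peaks with a motif was 67.4% within 25 nt, 92.3% within 100 nt, 20.9% for GGACT, and 22.8% for GGACT with spans matched within 10 nt, the last chosen after seeing the data. With windows of 100 nt the share 300 nt away was 96.9%, above that at peaks, so the direction of the comparison turned. Exons of 1000 nt and over held 72.3% of peaks. These differ by construction, since the alternatives count other transcripts, windows or exons.

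No paired analysis was possible because the table pools the immunoprecipitated and input libraries; leaving out a replicate was not run, since the table holds no value per library. Depth per library is unknown.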

Other observations

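By chromosome, the share of noncoding transcripts with a peak ran from 1 of 49 on chromosome 13 (2.04%) to 18 of 114 on chromosome 19 (15.8%). Chromosome 16 had 20 of 127 (15.7%), and the share over all noncoding transcripts was 9.90%. These are the extremes of many small counts, taken without regard to expression, and a difference between chromosomes was not tested.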
